A study of Rattus norvegicus with 3 samples.

Results

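Expression of 37 genes of glycolysis, the pentose phosphate pathway and the cellular response to low oxygen was followed in a rat osteosarcoma line, a rat malignant fibrous histiocytoma line and rat bone marrow mesenchymal stem cells (MSCs). The genes were chosen by name, and their probes were found by matching the accessions of the array design to RefSeq. Of the 13301 genes named on the array in this way, 32 were members of the set. No named probe was found for Pfkp, Eno2, Slc16a1, Pgd and Egln1, and no probe was assigned to these 5 by other means. A total of 31 members were well above background on at least 1 array and 26 on all 3. Pdk4, a kinase that switches off pyruvate dehydrogenase, was not well above background on any array.

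The lines COS1NR (osteosarcoma) and MFH1NR (malignant fibrous histiocytoma) were each grown from a tumor that the carcinogen 4-HAQO had induced in a F344 rat. According to the study's methods, both carry a p53 mutation. The MSCs came from femur marrow of the same strain by adherence to plastic, with no sort and no carcinogen named, and were grown with more serum than the lines. Age and sex of the animals are not given in the sources used here. Each cell type was measured on 1 Agilent array, so no spread between cultures was available for a test, and each tumor type is represented by a single line. No low oxygen treatment is named for any sample, and the oxygen pressure in culture is not given in the sources used here.

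Glycolysis splits glucose into pyruvate in a preparatory phase, which spends ATP, and a payoff phase, which regains it. Pyruvate is then reduced to lactate by lactate dehydrogenase or enters the mitochondria through pyruvate dehydrogenase, which the Pdk kinases switch off, while the pentose phosphate pathway diverts glucose 6-phosphate to NADPH and ribose. When oxygen is short, the prolyl hydroxylases of the Egln family no longer mark the alpha subunits Hif1a and Epas1 for destruction, and these pair with Arnt and switch on transporters, glycolytic enzymes, Pdk1, Bnip3, Ndrg1 and Egln3 itself. Tumor cells are known for running glycolysis also in the presence of oxygen. Hif1a is regulated to a large extent through the stability of its protein, which an RNA array does not measure.

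Levels are given below as the processed intensity of a gene's probe divided by the 75th percentile of its array, and they compare the same probe between arrays only. Levels given in a row belong to MSCs, COS1NR and MFH1NR in this order. For probes printed 10 times, the log2 intensities had a median SD between 0.0469 and 0.0575, which covers neither cultures nor labeling. A different probe of the same gene shifted the log2 ratio by a median of 0.15 for MFH1NR over COS1NR (1936 genes), 0.28 for COS1NR over MSC (1982 genes) and 0.32 for MFH1NR over MSC (1981 genes). The 90th percentile of this shift was 0.59, 0.93 and 1.01 in the same order, the last a full 2-fold. Only 8 members had several probes. COS1NR and MFH1NR were hybridized on the same slide and scanned together, unlike MSCs, so slide effects and cell type effects cannot be told apart wherever MSCs are compared. All 14 macrophage markers were well above background in MSCs, with a summed level of 174. In COS1NR 8 of them were, with a summed level of 9.67, and in MFH1NR 7, with 4.82, and Ptprc, Itgam, Lyz2 and C1qa were dim in both lines. All 8 measured proliferation markers were at least 2-fold higher in both lines than in MSCs, with a summed level of 206 in COS1NR, 181 in MFH1NR and 38.6 in MSCs, and 0 of 8 differed 2-fold between the lines. The part of macrophages, of division rate and of the medium in the differences from MSCs was not tested, and in a mixed culture fewer cells of a type and less RNA per cell cannot be told apart. MSC surface markers were above background for 6 of 6 genes in MSCs and 4 of 6 in each line, with Eng dim in both. The osteoblast markers well above background numbered 5 of 7 on the MSC and MFH1NR arrays and 4 of 7 on that of COS1NR, and Sp7 was dim in both MSCs and COS1NR. Their summed level was 75.6, 30.8 and 153 in MSCs, COS1NR and MFH1NR, of which Spp1 made up 61.4, 28.8 and 150. Relative to MSCs, 4 of 5 tested were at least 2-fold lower in COS1NR and 0 higher (20.0% and 20.7% of all genes). In MFH1NR 3 of 6 were lower and 2 higher (21.6% and 19.4%).

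On the 75th percentile scale, MFH1NR carried the lowest level of most members. Of the 26 members measured on all arrays, 19 were lowest in MFH1NR, 3 in COS1NR and 4 in MSCs, while over all 7931 genes measured on all arrays 31.7% were lowest in MFH1NR. The 19 became 13 without scaling (12.5% of all genes) and 13 with spike-in scaling (10.1%). Between the lines, 17 of 30 members were at least 2-fold lower in MFH1NR relative to COS1NR (56.7%), against 15.1% of 9422 genes, and only Slc2a3, 1 member of 30 (3.33%), was at least 2-fold higher, against 12.4% of genes. The median log2 ratio of the members was -1.05, against -0.08 over all genes. With the arrays scaled on spike-in probes, the counts were 10 lower and 4 higher, and all genes shifted too, to 7.11% lower and 34.9% higher.

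Against MSCs, 17 of 31 members were at least 2-fold lower in MFH1NR (54.8%), where the share over 9822 genes was 21.6%, and 1 was higher, where it was 19.4%. The median log2 ratio was -1.05 for the members and 0.02 for all genes. Without scaling, 10 members were lower and 5 higher, against 13.0% and 41.4% of all genes. Median scaling gave 12 and 3 (18.4% and 24.6% of all genes), quantile normalization 13 and 4 (19.8% and 22.1%) and spike-in scaling 12 and 3 (15.0% and 33.6%). In COS1NR, 9 of 31 members were at least 2-fold below MSCs (29.0%, against 20.0% of 9709 genes) and 4 were higher (12.9%, against 20.7%), with a median log2 ratio of 0.20, against 0.10 over all genes. Without scaling these counts became 5 lower and 6 higher, against 14.8% and 32.5% of all genes. Both comparisons use the same MSC array. A total of 14 of 31 members were at least 2-fold lower in MFH1NR than on both other arrays, which held for 7.44% of 10009 genes. The 14 became 9 without scaling (4.65% of genes) and 9 with spike-in scaling (4.21%).

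**Figure D1:**
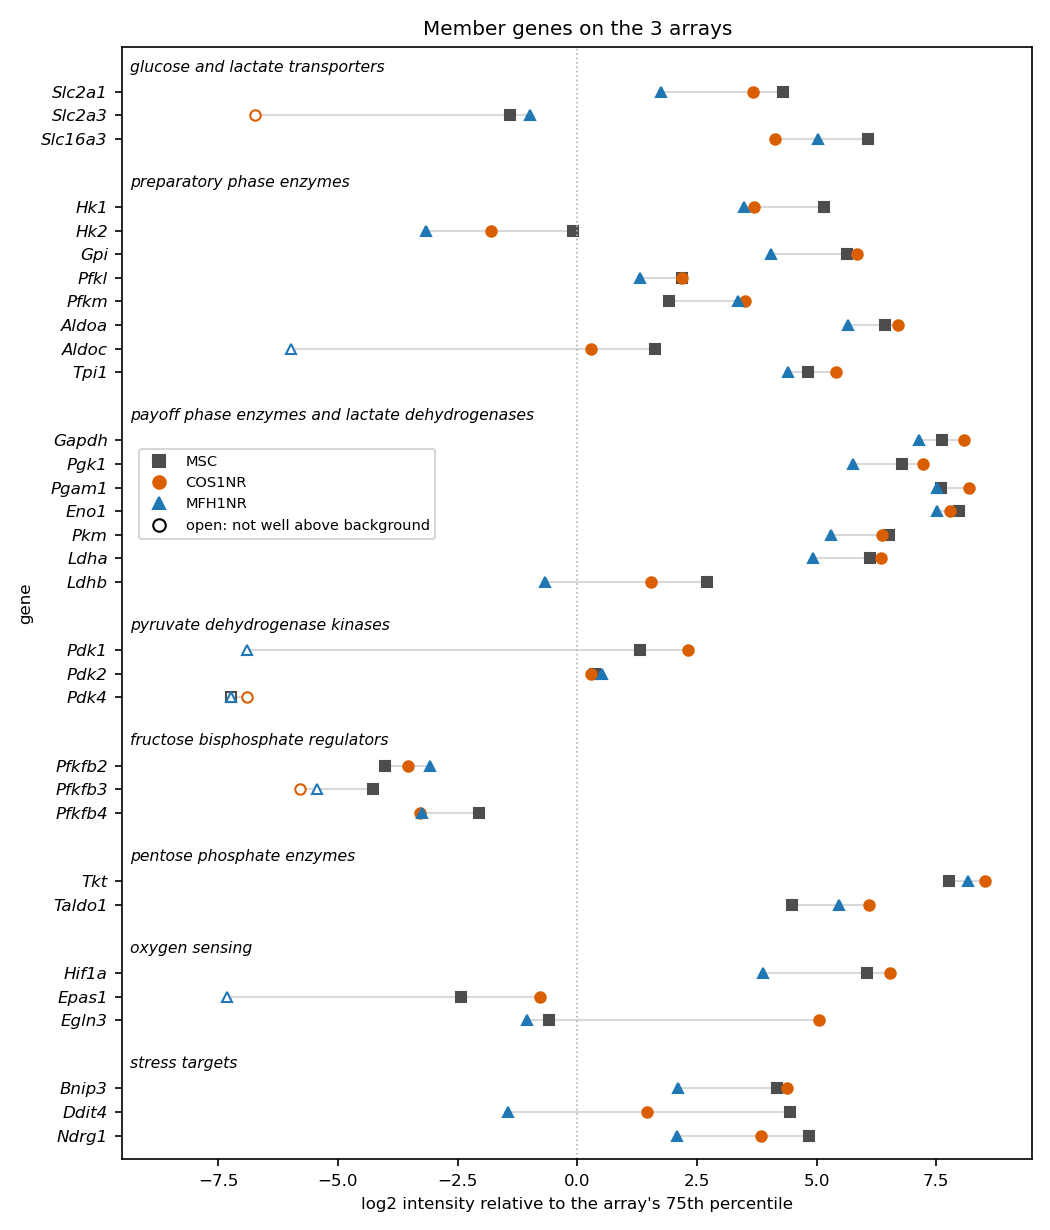
Levels of the 32 members with a named probe on the arrays of MSCs (squares), COS1NR (circles) and MFH1NR (triangles), 1 array each, as log2 intensity relative to the 75th percentile of the array. Open symbols are probes not well above background, and the MFH1NR symbol lies at the left of its row for most genes.

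**Figure D2:**
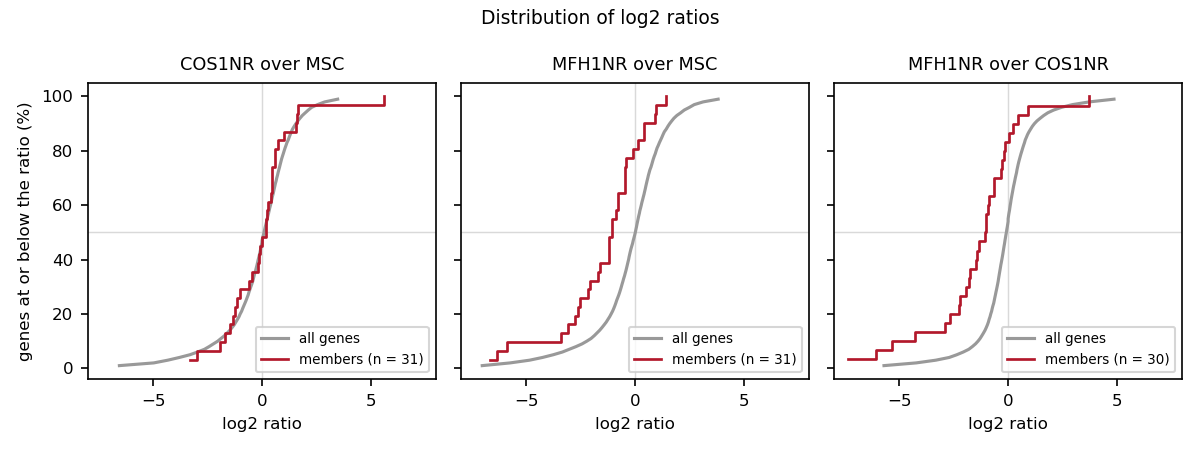
Share of genes (y axis, %) at or below each log2 ratio (x axis) for all genes tested (grey) and for the members (red) in the 3 comparisons. In COS1NR over MSC the medians of the members and of all genes are near each other (0.20 and 0.10). There 29.0% of the members and 20.0% of all genes are at least 2-fold lower, and 12.9% and 20.7% higher. The members lie to the left of all genes in both comparisons of MFH1NR (medians -1.05 against 0.02 and -0.08).

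The promoters of the members show how the letters to which the HIF complex is known to bind are spread over the set. Windows of 300 bases, from 250 before to 50 after the start of the gene, were taken from RefSeq on GRCr8, and 34 of 37 members had one (none for Pgk1, Slc2a3 and Ndrg1). The letters ACGTG and GCGTG were searched on both strands, and overlapping matches, such as both strands of CACGTG, were counted separately. At least 1 match lay in 21 of 34 member windows (61.8%) and in 41.6% of all 33469 windows, and at least 4 matches lay in 5 member windows (14.7%) and in 3.46% of all. The member windows counted were the first of each gene. With all 38 windows of the members, 24 held a match (63.2%) and 5 at least 4 (13.2%). A match is only a run of letters and does not show that a factor binds there. Among the members at least 2-fold lower in MFH1NR relative to COS1NR, 9 of 15 windows (60%) held a match and 4 held at least 4, and among the other members tested in that comparison 7 of 12 (58.3%) held a match and 0 held at least 4. These 4 windows, for a lactate dehydrogenase, a mitochondrial receptor of autophagy, a kinase of pyruvate dehydrogenase and a glucose transporter, are shown because they hold the most matches among the members that were lower in MFH1NR, and that of Egln3 because this gene differed most among the members well above background in both lines and its window held 0 matches. Each reads 5′ to 3′ on the strand of the gene, with matches in capitals; Ldha is at chr1:106507842-106508141 on the plus strand, Bnip3 at chr1:203154913-203155212 on the minus strand, Pdk1 at chr3:77113264-77113563 on the plus strand, Slc2a1 at chr5:138002272-138002571 on the plus strand and Egln3 at chr6:77410966-77411265 on the minus strand.
Ldha: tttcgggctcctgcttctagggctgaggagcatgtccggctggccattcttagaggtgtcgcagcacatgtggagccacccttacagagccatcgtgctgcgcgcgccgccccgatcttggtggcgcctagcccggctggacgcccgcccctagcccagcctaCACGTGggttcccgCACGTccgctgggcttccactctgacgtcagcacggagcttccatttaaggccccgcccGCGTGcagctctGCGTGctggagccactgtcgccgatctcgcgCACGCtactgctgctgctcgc
Bnip3: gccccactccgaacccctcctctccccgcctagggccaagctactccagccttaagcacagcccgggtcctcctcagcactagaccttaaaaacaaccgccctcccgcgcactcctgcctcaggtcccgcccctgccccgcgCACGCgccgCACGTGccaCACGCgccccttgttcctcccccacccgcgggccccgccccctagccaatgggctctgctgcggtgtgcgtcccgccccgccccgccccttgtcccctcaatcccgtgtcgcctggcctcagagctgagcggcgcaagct
Pdk1: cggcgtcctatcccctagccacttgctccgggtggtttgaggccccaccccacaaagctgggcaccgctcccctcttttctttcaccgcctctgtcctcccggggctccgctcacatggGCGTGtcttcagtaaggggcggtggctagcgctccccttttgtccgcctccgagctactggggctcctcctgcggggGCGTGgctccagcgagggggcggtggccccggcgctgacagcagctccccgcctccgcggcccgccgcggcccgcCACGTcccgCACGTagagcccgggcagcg
Slc2a1: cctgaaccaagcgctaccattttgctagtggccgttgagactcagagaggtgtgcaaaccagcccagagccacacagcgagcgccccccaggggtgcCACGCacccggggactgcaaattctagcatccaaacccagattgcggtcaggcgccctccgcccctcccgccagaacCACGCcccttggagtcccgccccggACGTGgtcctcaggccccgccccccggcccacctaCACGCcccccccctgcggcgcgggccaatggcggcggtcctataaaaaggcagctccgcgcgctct
Egln3: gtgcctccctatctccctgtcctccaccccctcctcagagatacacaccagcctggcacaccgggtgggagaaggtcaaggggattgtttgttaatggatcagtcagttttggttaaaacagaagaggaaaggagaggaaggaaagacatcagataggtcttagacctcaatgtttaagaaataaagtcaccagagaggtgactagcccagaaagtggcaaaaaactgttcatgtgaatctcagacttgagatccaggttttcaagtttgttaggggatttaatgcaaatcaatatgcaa

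The Ldha window held 6 matches and those of Bnip3, Pdk1 and Slc2a1 held 4 each. In Ldha and Bnip3 a pair of them overlaps in the palindrome CACGTG. Hif1a and Aldoc, also at least 2-fold lower in MFH1NR relative to COS1NR, had 3 matches each, and Ddit4 had 2. Pkm, Hk2, Tpi1 and Epas1 were lower as well and had 0 in these windows. Gapdh, which stayed within 2-fold, had 3.

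The glucose transporters Slc2a1 and Slc2a3 differed in opposite directions between the lines. Slc2a1, the basal glucose transporter GLUT1, had levels of 19.6, 12.8 and 3.37 in MSCs, COS1NR and MFH1NR, each a mean of 10 spots with SDs of 0.394, 0.312 and 0.0528. It was 3.81-fold lower in MFH1NR than in COS1NR and 5.81-fold lower than in MSCs, and the spot SDs say nothing of the spread between cultures. Slc2a3, the high affinity glucose transporter GLUT3, had a level of 0.376 in MSCs and 0.502 in MFH1NR and was dim, that is not well above background, in COS1NR. Its COS1NR level was at least 13.2-fold below that of MFH1NR and at least 9.90-fold below that of MSCs. Such bounds depend on the background correction, and with another one (normexp) these were 5.69-fold and 4.68-fold. Slc16a3, the lactate exporter MCT4, had levels of 67.4, 17.5 and 32.5 in MSCs, COS1NR and MFH1NR. COS1NR was thus 3.86-fold below MSCs, and the lines differed by 1.86-fold, with MFH1NR the higher (over 2-fold with quantile, spike-in and no scaling). Its MFH1NR level was 2.08-fold below that of MSCs, a log2 ratio of -1.05 that lay between -0.84 and -0.30 with the other scalings and normexp.

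The hexokinases, which trap glucose in the cell, were lower in both lines than in MSCs. Hk1 had levels of 35.9, 12.9 and 11.2 in MSCs, COS1NR and MFH1NR, 2.78-fold and 3.21-fold lower in the lines, the latter a log2 ratio of -1.68 that became -0.93 without scaling. Hk2, the isoform that low oxygen is known to induce, had levels of 0.941, 0.286 and 0.112, which were 3.29-fold and 8.39-fold lower in the lines. A different probe of Hk1 gave larger log2 differences of -2.14 and -2.59, where the first gave -1.48 and -1.68. The order of the lines in Hk1 was not settled, because their log2 ratio of -0.20 turned to 0.16 without scaling and 0.59 with spike-in scaling.

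In the remaining preparatory phase, the muscle isoform of phosphofructokinase stood apart. Pfkm had levels of 3.79, 11.3 and 10.3 in MSCs, COS1NR and MFH1NR, 2.98-fold and 2.71-fold higher in the lines, and it was the only member at least 2-fold higher in both lines than in MSCs on this scale, a pattern of 10.8% of 10009 genes. In the other direction, 8 of 31 members were at least 2-fold lower in both lines, as were 12.9% of genes, and this became 2 (Hk2 and Ddit4) without scaling, against 8.49% of genes, and 5 or 6 with median, quantile or spike-in scaling and with normexp. The liver isoform Pfkl had levels of 4.58, 4.58 and 2.48 in MSCs, COS1NR and MFH1NR, within 2-fold in every comparison. Gpi, which turns glucose 6-phosphate into fructose 6-phosphate, had a level of 49.9, 57.3 and 16.4 in MSCs, COS1NR and MFH1NR, and was 3.49-fold lower in MFH1NR than in COS1NR. A different Gpi probe gave a log2 ratio of -1.83 between the lines, against -1.80.

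The aldolases, which split fructose 1,6-bisphosphate, and triose phosphate isomerase were also lower in MFH1NR than in COS1NR. Aldoc, the brain isoform, had a level of 3.06 in MSCs and 1.23 in COS1NR but was not well above background in MFH1NR, at least 101-fold below MSCs and at least 40.5-fold below COS1NR. These bounds shrank to 38.0-fold and 15.5-fold with normexp, their lowest values over the other scalings and normexp. Aldoa had levels of 85.8, 103 and 50.7 in MSCs, COS1NR and MFH1NR, and Tpi1 of 28.3, 42.6 and 21.2. Their differences between the lines were 2.04-fold and 2.01-fold, just past the threshold, and they were under 2-fold with each of the other scalings and with normexp. Of the 8 preparatory phase enzymes, 5 were at least 2-fold lower in MFH1NR relative to COS1NR, against 15.1% of all genes, and 0 were higher. The 5 became 3 with median scaling, quantile normalization or normexp and 2 with spike-in or no scaling.

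Among the payoff enzymes, Pgk1, Pkm and both lactate dehydrogenases were at least 2-fold below COS1NR in MFH1NR, and Gapdh, Pgam1 and Eno1 were not. Gapdh, often used as a loading control, had levels of 196 ± 4.52, 271 ± 7.30 and 141 ± 1.99 in MSCs, COS1NR and MFH1NR (SD over 10 spots). It was 1.39-fold higher in COS1NR than in MSCs and 1.92-fold lower in MFH1NR than in COS1NR. Its difference of MFH1NR from MSCs changed sign with the scaling, with a log2 ratio of -0.47, or 0.29 without scaling, 0.20 after quantile normalization and 0.05 on the spike-in scale. Pgk1, the first enzyme that regains ATP, had levels of 111 ± 3.98, 148 ± 3.16 and 53.9 ± 1.45 in MSCs, COS1NR and MFH1NR, 2.75-fold lower in MFH1NR than in COS1NR. Pgam1 and Eno1, the mutase and enolase, stayed within 2-fold in every comparison. Pgam1 had levels of 194, 291 and 184 in MSCs, COS1NR and MFH1NR, and Eno1 of 252, 221 and 183. The order of MFH1NR and MSCs changed with the scaling for both, as did that of the lines.

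Pkm, which makes pyruvate, had levels of 91.0, 83.0 and 39.5 in MSCs, COS1NR and MFH1NR, 2.10-fold lower in MFH1NR than in COS1NR. As a log2 ratio this was -1.07, which became -0.78 after quantile normalization, -0.71 without scaling and -0.28 with spike-in scaling. Ldha, the lactate dehydrogenase subunit of the muscle, had levels of 69.9 ± 2.52, 80.9 ± 1.75 and 30.5 ± 0.677 in MSCs, COS1NR and MFH1NR (SD over 10, 9 and 9 spots), 2.66-fold lower in MFH1NR than in COS1NR. Ldhb, the subunit of the heart, differed more, with levels of 6.51, 2.91 and 0.622, and MFH1NR was 10.46-fold below MSCs and 4.68-fold below COS1NR. Of the 7 payoff and lactate dehydrogenase genes, 4 were at least 2-fold lower in MFH1NR relative to COS1NR, against 15.1% of all genes, and this became 1 on the spike-in scale. Against MSCs 4 of 7 were lower in MFH1NR, where the share of all genes was 21.6%, and 1 with median, quantile, spike-in or no scaling. Gapdh, Pgk1, Pgam1, Eno1, Pkm, Ldha, Aldoa and Tpi1 are known for near-identical copies elsewhere in the genome, and since probe sequences were not used here, signal from such copies cannot be told apart from that of the gene.

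**Figure D3:**
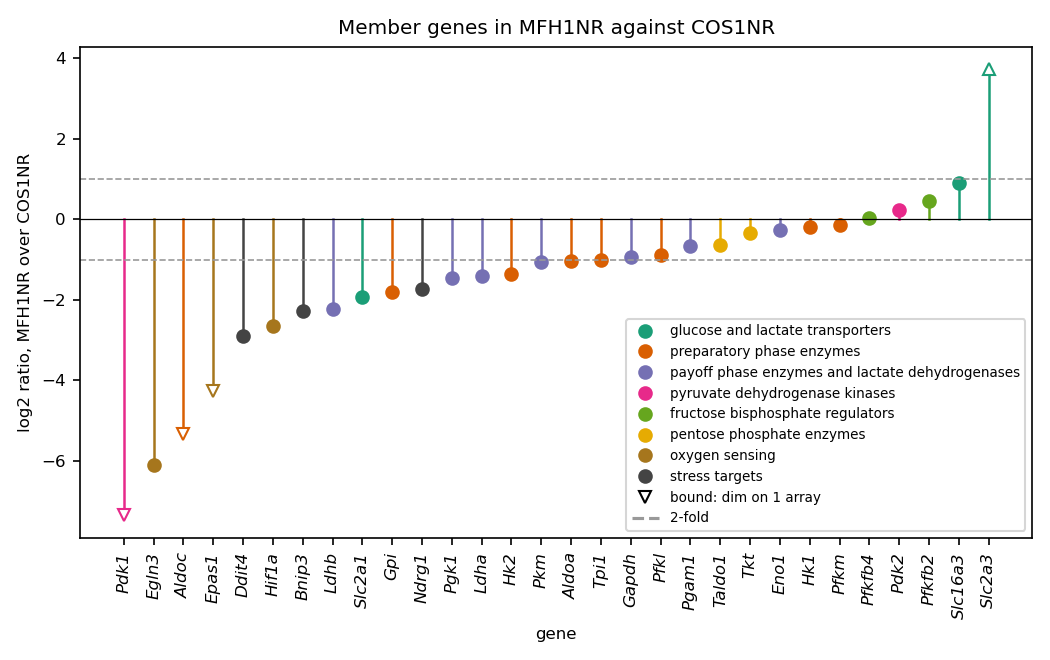
The log2 ratio of MFH1NR over COS1NR (y axis) of 30 members, ordered from the lowest to the highest, with 1 array per line, colored by role. Open triangles are bounds for genes dim on 1 array, dashed lines mark 2-fold, and 17 genes lie below the lower line and 1 above the upper line.

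At the entry to the mitochondria, Pdk1 and Pdk2 differed in pattern. The Pdk1 level was 2.48 in MSCs and 4.94 in COS1NR, 1.99-fold apart, and it was not well above background in MFH1NR. The MFH1NR level was therefore at least 163-fold below COS1NR and at least 82.0-fold below MSCs. These bounds shrank to 44.9-fold and 28.2-fold with normexp, which puts Egln3 (58.5-fold) before Pdk1 between the lines, and the bound against MSCs to 48.6-fold without scaling. Pdk2, an isoform not known as a HIF target, had similar levels of 1.29, 1.22 and 1.43 in MSCs, COS1NR and MFH1NR. Pdk3, the remaining isoform and not a member, had levels of 6.004, 4.81 and 3.03.

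The Pfkfb enzymes set fructose 2,6-bisphosphate, the activator of phosphofructokinase. The probes of the members Pfkfb2, Pfkfb3 and Pfkfb4 gave intensities between 14.1 and 141. Pfkfb4 had levels of 0.240, 0.102 and 0.105 in MSCs, COS1NR and MFH1NR, 2.34-fold and 2.28-fold lower in the lines. As log2 ratios these were -1.23 and -1.19, and they shrank to -0.83 and -0.43 without scaling and to -0.80 and -0.88 with normexp. Pfkfb3 was above background in MSCs only, at 0.0520, and at least 1.37-fold lower in COS1NR and 1.72-fold lower in MFH1NR. Without scaling these bounds were 1.04-fold and 1.02-fold. For Pfkfb2 the levels were 0.0621, 0.0865 and 0.119 in MSCs, COS1NR and MFH1NR, within 2-fold. A different Pfkfb2 probe was above background in MFH1NR only, with a log2 bound of 1.61 over MSCs and 1.36 over COS1NR, so the 2 probes fell on different sides of the threshold.

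In the nonoxidative pentose phosphate pathway, 1 of 2 measured members (Taldo1) was at least 2-fold higher in COS1NR than in MSCs, against 20.7% of all genes. In MFH1NR it was 0 of 2, against 19.4%, and Taldo1 lay just under the threshold. These counts became 2 and 2 with quantile normalization (21.6% and 22.1% of all genes) and without scaling (32.5% and 41.4%). They were 1 and 1 with median scaling (25.1% and 24.6%), spike-in scaling (14.6% and 33.6%) or normexp (14.7% and 14.3%). Taldo1 (transaldolase) had levels of 22.4, 68.5 and 44.0 in MSCs, COS1NR and MFH1NR, 3.06-fold and 1.96-fold higher in the lines. Tkt (transketolase) had levels of 218, 365 and 287 in MSCs, COS1NR and MFH1NR, 1.68-fold and 1.32-fold higher. Of the other pentose phosphate genes, 4 of 8 were at least 2-fold higher in COS1NR than in MSCs and 0 lower, against 20.7% and 20.0% of all genes. In MFH1NR, 2 of 9 were higher and 2 lower (22.2% each), near the 19.4% and 21.6% of all genes. Rbks, which phosphorylates ribose, had a level of 0.576, 3.30 and 2.43, 5.72-fold and 4.22-fold higher in the lines. Prps2, an enzyme that turns ribose 5-phosphate into the nucleotide precursor and chosen after its values were seen, had a level of 1.43 in MSCs and 7.94 in COS1NR and was not well above background in MFH1NR, at least 262-fold below COS1NR, or 70.2-fold with normexp.

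All 3 measured oxygen sensing members were at least 2-fold lower in MFH1NR relative to COS1NR, as were 15.1% of all genes. Hif1a had levels of 66.3, 92.2 and 14.7 in MSCs, COS1NR and MFH1NR, 6.29-fold below COS1NR and 4.52-fold below MSCs. A different Hif1a probe gave a log2 ratio between the lines of -2.70, against -2.65. Epas1, the alpha subunit HIF2A, had a level of 0.187 in MSCs and 0.583 in COS1NR, 3.13-fold higher in the latter, and was not well above background in MFH1NR. Its MFH1NR level was at least 6.17-fold below MSCs and at least 19.3-fold below COS1NR (3.52-fold and 7.99-fold with normexp), and it was the only member at least 2-fold higher in COS1NR and 2-fold lower in MFH1NR than in MSCs. Egln3, the prolyl hydroxylase PHD3, had levels of 0.669, 33.2 and 0.486 in MSCs, COS1NR and MFH1NR. COS1NR stood 49.6-fold above MSCs and 68.2-fold above MFH1NR, and the COS1NR over MSC ratio lay at percentile 99.8 of all genes. The other arrays differed by 1.38-fold in Egln3, and their order changed without scaling and on the spike-in scale.

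Of the partners and regulators of the alpha subunits that are not members, Arnt and Vhl were named by rule. Arnt, the shared beta subunit, had levels of 0.0690, 0.0713 and 0.0528 in MSCs, COS1NR and MFH1NR, and Vhl, the ubiquitin ligase subunit that binds hydroxylated alpha subunits, had 14.4, 20.6 and 13.4. Both genes stayed within 2-fold in every comparison. The Arnt intensities of 40.6, 55.2 and 52.5 lay near the lowest ones well above background (17.9, 29.4 and 30.1). This limits how far the Arnt ratio could fall. Arnt2, a paralog of Arnt, differed 24.9-fold between the lines, with MFH1NR the higher, and Hif1an, a hydroxylase that acts on the alpha subunits, differed 2.01-fold in the same direction (1.54-fold with normexp). Both were chosen after their values were seen.

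The stress targets were at least 2-fold lower in MFH1NR in 3 of 3 cases, against COS1NR (15.1% of all genes) and against MSCs (21.6%), and against COS1NR in 2 of 3 on the spike-in scale, where Ndrg1 had a log2 ratio of -0.95. Bnip3, a mitochondrial receptor of autophagy, had levels of 18.1, 20.7 and 4.30 in MSCs, COS1NR and MFH1NR, 4.82-fold lower in MFH1NR than in COS1NR. Ddit4 (REDD1), an inhibitor of mTORC1 under stress, had levels of 21.7, 2.73 and 0.365, which were 7.96-fold and 59.5-fold lower in the lines than in MSCs. Ndrg1 had a level of 28.6, 14.2 and 4.26 in MSCs, COS1NR and MFH1NR, 2.01-fold lower in COS1NR and 6.72-fold lower in MFH1NR than in MSCs. A different Ndrg1 probe gave log2 ratios of -1.21 and -2.96 for the same comparisons, against -1.01 and -2.75. The -1.01 was -0.85, -0.94 and -0.61 with median, quantile and no scaling.

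Beyond the members, more of the other genes of the response to low oxygen were at least 2-fold lower than higher in the lines relative to MSCs. Of 23 tested, 11 were lower in COS1NR (47.8%, against 20.0% of all genes) and 0 higher, and 14 were lower (60.9%, against 21.6%) and 1 higher in MFH1NR. A total of 10 were lower in both lines, a pattern of 12.9% of all genes, and 0 higher in both. Vegfa, the angiogenic growth factor, had levels of 10.8, 1.68 and 0.808 in MSCs, COS1NR and MFH1NR, 6.42-fold and 13.4-fold lower. Hmox1 (heme oxygenase) was 11.4-fold and 7.83-fold lower, the transcriptional repressor Bhlhe40 5.72-fold and 8.88-fold, the secreted glycoprotein Stc2 13.5-fold and 3.43-fold and P4ha1, a collagen prolyl hydroxylase, 2.50-fold and 4.41-fold. Between the lines the picture was more mixed, with 6 of 23 lower (26.1%, against 15.1% of all genes) and 3 higher (13.0%, against 12.4%) in MFH1NR than in COS1NR and a median log2 ratio of -0.43, where the members had 17 of 30 lower and a median of -1.05. The difference between these lists was not tested.

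The other glycolysis and glucose handling genes, mostly isoforms of other tissues, differed between the lines about as often as all genes. Of 13 tested in MFH1NR over COS1NR, 2 were lower (15.4%, against 15.1% of all genes) and 2 higher (against 12.4%), with a median log2 ratio of -0.13. Against MSCs, 5 of 16 were at least 2-fold higher and 7 lower in COS1NR, against 20.7% and 20.0% of all genes, and 3 of 15 were higher and 4 lower in MFH1NR, against 19.4% and 21.6%. Pgam2, the mutase of muscle, had levels of 0.0660, 0.475 and 0.247 in MSCs, COS1NR and MFH1NR, 7.19-fold and 3.75-fold higher in the lines, and Bpgm, which makes 2,3-bisphosphoglycerate, was 2.60-fold and 2.38-fold higher. Hk3, a hexokinase of blood cells, was 8.56-fold and 9.09-fold lower, and the gluconeogenic enzyme Fbp1 at least 9.27-fold and 11.6-fold (4.67-fold and 5.42-fold with normexp). Ldhc was at least 2.66-fold and 3.34-fold lower, or 2.03-fold and 1.98-fold without scaling. The transporter Slc2a10 was at least 2.20-fold and 2.76-fold lower (1.76-fold and 1.97-fold with normexp, 1.67-fold and 1.63-fold without scaling). Hk3 and Fbp1 are also expressed in macrophages, whose markers were lower in the lines by the amounts given above, and their part was not tested.

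Of the 13 tested genes through which pyruvate enters the mitochondria, 11 were within 2-fold in COS1NR over MSC and 10 in each comparison of MFH1NR. In COS1NR over MSC 1 was higher and 1 lower, against 20.7% and 20.0% of all genes. In MFH1NR over MSC it was 1 and 2 (19.4% and 21.6%), and in MFH1NR over COS1NR 2 and 1 (12.4% and 15.1%). Their median log2 ratios were 0.27, 0.10 and -0.17 in this order, against 0.10, 0.02 and -0.08 over all genes. Pdp1, the phosphatase that opposes the Pdk kinases, had levels of 1.35, 4.39 and 13.2 in MSCs, COS1NR and MFH1NR, 3.25-fold and 9.77-fold higher in the lines. Pdha1, the subunit of pyruvate dehydrogenase that both Pdk and Pdp1 act on, was chosen after its values were seen. It had a level of 7.85 in MSCs and 14.9 in COS1NR and was not well above background in MFH1NR, at least 493-fold below COS1NR, or 187-fold with normexp. The other subunits Pdhb, Dlat and Dld stayed within 2-fold in every comparison.

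**Figure D4:**
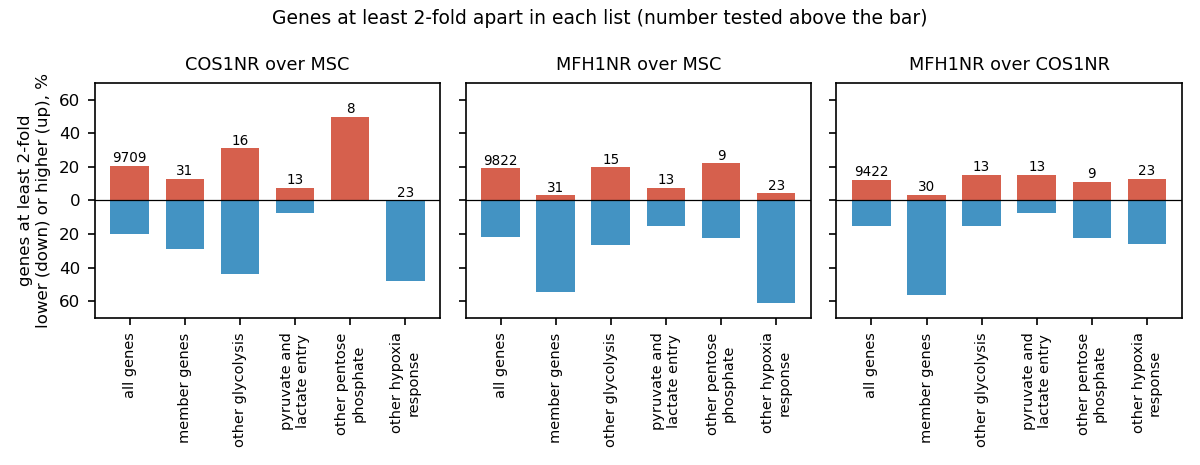
Percent of the tested genes that were at least 2-fold higher (red, up) or lower (blue, down) in each comparison, for all genes, the members and the 4 lists of other pathway genes, with the number tested above each bar and 1 array per cell type. Of the bars plotted, members have the longest lower one in MFH1NR over COS1NR (56.7%, against 15.1% of all genes), and the other hypoxia response genes in both comparisons with MSCs (47.8% and 60.9%).

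The counts depended on the scaling between arrays, since the 75th percentiles of MSCs, COS1NR and MFH1NR were 589, 774 and 994. Without scaling, the median of all genes moved from 0.10 to 0.49 in COS1NR over MSC, from 0.02 to 0.77 in MFH1NR over MSC and from -0.08 to 0.27 in MFH1NR over COS1NR. Spike-in scaling moved it to -0.16, 0.53 and 0.70. A factor per array moves members and all genes nearly alike by construction, so of these alternatives quantile normalization and normexp are those that bear on the members' median relative to all genes. In MFH1NR over COS1NR this was -0.97, with -0.83 after quantile normalization and -0.91 with normexp, and in MFH1NR over MSC it was -1.07, with -0.92 and -0.82. In COS1NR over MSC it was 0.10, with 0.06 and 0.07, and its sign turned with the second brightest probe (-0.05) and with no filter on dim probes (-0.02). Under each of the 4 other scalings and normexp, 10 of the 17 members lower in MFH1NR than in COS1NR stayed at least 2-fold lower, namely Gpi, Aldoc, Ldhb, Slc2a1, Pdk1, Hif1a, Epas1, Egln3, Bnip3 and Ddit4. Of the 17 lower in MFH1NR than in MSCs, 10 did, namely Hk2, Aldoc, Ldhb, Slc2a1, Pdk1, Hif1a, Epas1, Bnip3, Ddit4 and Ndrg1. Of the members called in COS1NR over MSC, 5 of 9 stayed lower (Hk1, Hk2, Slc2a3, Slc16a3 and Ddit4) and 4 of 4 stayed higher (Pfkm, Taldo1, Epas1 and Egln3). The 8 reference genes (Actb, Tbp, Hprt1, Ppia, Rplp0, B2m, Ywhaz and Sdha) gave, on the 75th percentile scale, median log2 ratios of -0.06 (COS1NR over MSC), -0.04 (MFH1NR over MSC) and 0.01 (MFH1NR over COS1NR), with single genes from -1.08 to 1.53.

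**Figure D5:**
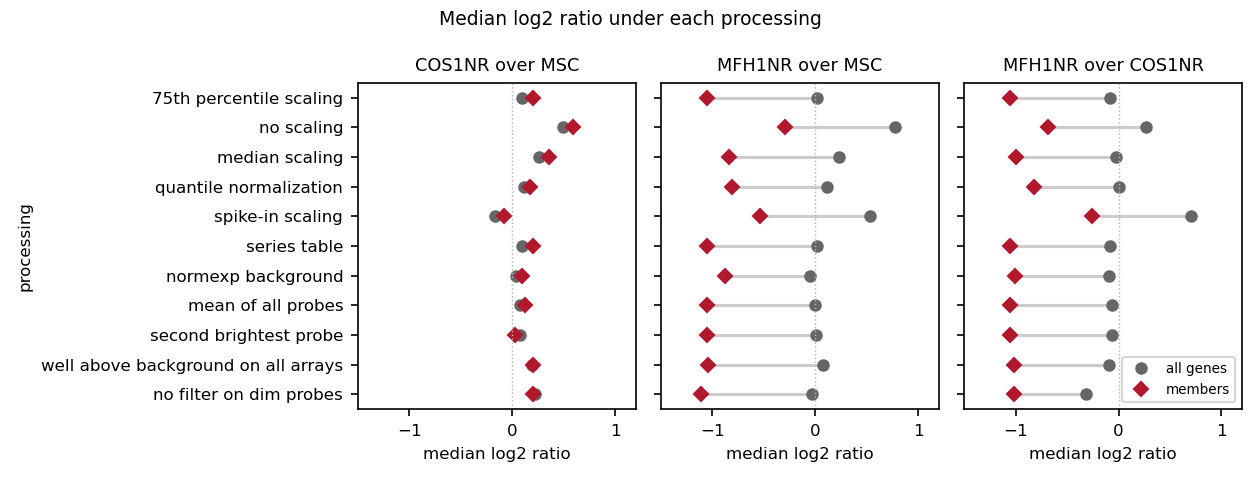
Median log2 ratio (x axis) of the members (red diamonds) and of all genes tested (grey circles) under each way of processing (rows) in the 3 comparisons, with 1 array per cell type. Both medians move together with the scaling, which a factor per array brings about by construction, and the members lie left of all genes in both comparisons of MFH1NR under every setting shown.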

How the data were processed

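Cy3-labeled cRNA of MSCs, COS1NR and MFH1NR was measured on 1 whole rat genome array each (45018 spots, 43379 not controls). The authors deposited 1-color intensity values from Agilent Feature Extraction (10.5.1.1 per the file headers, 9.1 per the submitters' processing notes), which subtracts the background and detrends a single array but applies no scaling from array to array. The deposited table of the series held the same values. The study's methods and the sample labels name different kits for RNA isolation and labeling. The share of spots well above background was between 56.6% and 59.7%, no spot was saturated, and between 187 and 217 outlier spots per array were left out.

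From each log2 intensity the log2 of the array's own 75th percentile, without control spots, was subtracted. Spots of a probe were averaged on the log2 scale. RefSeq accessions named 16745 probes, and of several probes of a gene the one with the highest mean log2 intensity was used. A gene entered a comparison if the software called that probe well above background on either array of the pair. Where it was dim on the other, the brighter level was divided by the lowest level called above background there, or by the dim probe's own level if higher, which gives "at least N-fold". Differences of at least 2-fold were counted, without a test. The number of arrays limits the precision.

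Members and lists were chosen with earlier results of these data known. All members were named; of the other lists, up to 6 genes a list at least 2-fold apart in the same direction in both lines, by size, plus Vegfa, Arnt and Vhl; some genes that this rule names are not reported here. Alternatives were other scalings, the series table, normexp (offset 50, on the median spot intensity), other probes, other filters and thresholds of 1.5-fold and 3-fold. On simulated arrays of 7931 genes, 100% of 200 genes changed 4-fold were called, with 8 others. The noise was a chosen value, small against the 2-fold threshold, and no gene was dim, so this recovery was fixed in advance. It checks the counting step only and says nothing of the calls on these 3 arrays. Python 3.11.15, numpy 2.4.6, pandas 2.3.3, scipy 1.17.1, matplotlib 3.10.9, R 4.3.3 and limma 3.58.1 were used.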

Additional observations from a re-analysis of the deposited data

Results flagged for a closer look

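Epas1 moved in opposite directions in the lines. Its log2 ratio over MSCs was 1.64 in COS1NR and at most -2.63 in MFH1NR, where the probe was not well above background and the value is a bound. With 1 array per cell type, the difference was not tested. Over all genes, 1.25% were likewise at least 2-fold higher in COS1NR and 2-fold lower in MFH1NR than in MSCs.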

How the results depend on the processing

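No member at least 2-fold apart changed direction under any alternative, while members within 2-fold did, up to 6 of them (MFH1NR over COS1NR, spike-in scaling: Hk1, Pfkm, Pgam1, Eno1, Tkt and Taldo1). A factor per array could not turn a 2-fold difference, since each moved all genes by less than 2-fold. With spike-in scaling, for example, the median of all genes in MFH1NR over COS1NR moved from -0.08 to 0.70. The series table held the same values and only 8 members had several probes, so these alternatives could hardly turn a direction either. Without scaling, the COS1NR over MSC comparison had 5 members lower and a median log2 ratio of 0.59, MFH1NR over MSC had 5 higher, 10 lower and a median of -0.30, and MFH1NR over COS1NR had 2 higher and a median of -0.69. Spike-in scaling gave 3 higher and a median of -0.54 in MFH1NR over MSC, and 4 higher, 10 lower and a median of -0.26 in MFH1NR over COS1NR. Quantile normalization gave 4 higher in MFH1NR over MSC, and 2 higher and a median of -0.83 in MFH1NR over COS1NR. In MFH1NR over MSC, 3 were higher with median scaling, 2 with normexp, 2 with the mean of all probes and 2 with the second brightest probe. In MFH1NR over COS1NR, 2 were higher with the second brightest probe and 0 with genes well above background on all arrays, which leaves out Slc2a3. At 1.5-fold, 7, 3 and 2 members were higher in COS1NR over MSC, MFH1NR over MSC and MFH1NR over COS1NR. At 3-fold, 4 were lower in COS1NR over MSC, 0 higher in MFH1NR over MSC and 11 lower in MFH1NR over COS1NR. The shares of all genes at 1.5-fold and 3-fold are not given here, so these counts cannot be set against all genes. The mean over members was -1.499 in MFH1NR over MSC and -1.49 in MFH1NR over COS1NR. The median of members minus that of all genes was -0.97 in MFH1NR over COS1NR, -0.70 with no filter on dim probes and -1.38 with means. The causes of the moves with the scaling, other than the shift of all genes, were not tested.

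Levels near the lowest one well above background (intensities of 17.9 to 30.1) give only bounds, and no signal was replicated beyond spots of 1 array. No paired analysis was possible because each cell type had 1 array.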

Other observations

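Members that were dim in MFH1NR alone belong to a wider group. Of 8303 genes well above background in MSCs and COS1NR, 372 (4.48%) were not well above background in MFH1NR, and of the members these were 3 of 29 (10.3%), namely Aldoc, Pdk1 and Epas1. Pdha1 and Prps2, described above, were also among them, and both lie on chromosome X in the gene order of GRCr8. So was Ak4, a listed hypoxia gene on chromosome 5. The genes next to these 6 were then looked up, a step chosen after the values were seen. On each side 3 were taken among those well above background in MSCs and COS1NR. This filter leaves out genes dim in COS1NR, which favors lower values in MFH1NR. Of all genes under the same filter, the 4.48% above were not well above background in MFH1NR. The share of them at least 2-fold lower is not given here, so the 2-fold counts of neighbors have no matched share. Around Pdha1, 5 of 6 neighbors had at least 2-fold less signal in MFH1NR than in COS1NR, and 4 of these (Car5b, Ap1s2, Sh3kbp1 and Bclaf3) were not well above background in MFH1NR. Eif1ax, a translation initiation factor beside them, had levels of 6.45, 11.1 and 0.334 in MSCs, COS1NR and MFH1NR, 33.2-fold lower than in COS1NR, while Rbbp7 had 8.38, 9.69 and 8.25.

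Around Prps2, 4 of 6 neighbors were at least 2-fold lower and 1 (Clcn4) was 2.35-fold higher in MFH1NR than in COS1NR. The 15.1% of all genes that were lower covers genes bright on either array of the pair, so it is not a matched share for neighbors. Tmsb4x, which encodes the actin-binding thymosin beta 4, had a level of 392 in MSCs and 189 in COS1NR and was not well above background in MFH1NR, at least 5757-fold below COS1NR, or 1607-fold with normexp. For the members the counts were 0 of 6 neighbors for Aldoc, 0 of 6 for Pdk1 and 1 of 6 for Epas1 (Camkmt), and for Ak4 it was 1 of 6 (Pde4b).

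Other genes of the same pathways set the lines apart, and they too were chosen after their values were seen. Pfkfb1 had levels of 0.438, 5.73 and 0.421, 13.6-fold higher in COS1NR than in MFH1NR. Adm (adrenomedullin), a vasodilator peptide that low oxygen is known to induce, had a level of 15.7, 25.3 and 1.56, 16.2-fold higher in COS1NR than in MFH1NR. Arnt2, a paralog of Arnt, went the other way, with 1.82, 0.251 and 6.24, 24.9-fold higher in MFH1NR than in COS1NR. Tktl1, a paralog of Tkt, was well above background in MFH1NR alone, at 0.587, at least 15.5-fold above COS1NR and at least 19.3-fold above MSCs, or 7.89-fold and 5.26-fold with normexp.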
